A study of Homo sapiens with 24 samples.

Results

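RNA-seq was used to compare the messenger RNA of Flp-In T-REx 293 cells, a derivative of the human embryonic kidney line HEK293, that expressed the miRNA miR-1 with that of cells carrying the empty vector (n = 2 libraries each). The genes described are all 14348 genes, of 29794 in the count table, that held enough reads to be tested. Both groups of cells had been transduced with a lentiviral vector in which doxycycline switches on GFP from a CMV promoter, behind an intron-containing 5′UTR of EF1α. In the miR-1 cells the intron held an artificial miRNA hairpin with the miR-1 sequence, and in the control cells it held no hairpin. After 6 days in 1 mg/mL geneticin, which kills cells without the vector, both groups received 1 µg/mL doxycycline for 7 days. The 2 replicates of a group came from independent transductions and were kept as separate cultures. Libraries were strand-specific and poly(A)-selected, and the 4 libraries are part of a series of 24. The 2 miR-122 libraries of the same batch, from cells with a hairpin for that miRNA in the same vector, entered the same fit and are set beside the results where they bear on them.

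A miRNA guides an Argonaute protein to messenger RNAs that pair with its seed, the bases near its 5′ end, and the bound messages are then deadenylated, degraded and translated less. miR-1 is made in heart and skeletal muscle, where it is known to repress regulators of actin, gap junction proteins and other genes that muscle cells keep low. A change after a miRNA is expressed can arise at a paired message or further downstream, when a repressed gene is itself a transcription factor, a splicing factor or an enzyme. Gene counts alone do not separate these routes, so changes were described by whether the longest annotated 3′UTR of the gene holds a seed match, and transcription was not analysed here.

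The mature miRNAs are shown with the seed (bases 2 to 8) in capitals, because the letters of the seed define every match counted below. The sequences are from RefSeq (GRCh38.p14), where miR-1 lies at chr20:62554351-62554372 on the plus strand and miR-122 at chr18:58451088-58451109 on the plus strand. Counted from the 5′ end, the seeds differ by A5G, miR-1 first.
hsa-miR-1-3p: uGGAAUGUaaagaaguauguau
hsa-miR-122-5p: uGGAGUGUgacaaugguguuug

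The matches to miR-1 were ACATTCCA (8mer), ACATTCC (7mer-m8), CATTCCA (7mer-A1) and CATTCC (6mer), each found on the transcribed strand, and a gene was put in the class of its longest match. The sites below are of genes that fell and that recur in the results, namely regulators of actin (TWF1, LASP1, TMSB4X), a gap junction protein (GJA1), a transcription factor (TAL1), a choline transporter (SLC44A1) and splicing factors (SRSF9, PTBP1). Each is 22 bases of the transcribed strand from the 3′UTR in GRCh37, with the match in capitals. The sites lie at chr12:44187768-44187789 (TWF1, minus strand), chr6:121769606-121769627 and chr6:121770737-121770758 (GJA1, plus), chr1:47682519-47682540 (TAL1, minus), chr9:108151353-108151374 (SLC44A1, plus), chrX:12994945-12994966 (TMSB4X, plus), chr17:37075046-37075067 (LASP1, plus), chr12:120899750-120899771 (SRSF9, minus) and chr19:812141-812162 (PTBP1, plus).
TWF1 8mer: attaaagtaaatggACATTCCA
GJA1 first 8mer: aagtccctgctaaaACATTCCA
GJA1 second 8mer: tactaatttgtttgACATTCCA
TAL1 8mer: atgaaaaactggcaACATTCCA
SLC44A1 first 8mer: atggaaacccattgACATTCCA
TMSB4X 8mer: ccaatatgcactgtACATTCCA
LASP1 first 8mer: catctgtcttcagcACATTCCA
SRSF9 8mer: tgtgctcagaatctACATTCCA
PTBP1 7mer-m8: aggggaccccacgcACATTCCg

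Each of the 4 libraries held between 20756681 and 21595191 counted reads, and replicate counts differed by more than sampling noise in both groups (chi-square per degree of freedom of 4.34 between the empty vector libraries and 1.82 between the miR-1 libraries). The empty vector libraries also differed by gene length. Empty vector replicate 2 was higher than replicate 1 by a median of 0.07 on the log2 scale in the shortest quintile of genes, and its median difference was -0.08 in the longest quintile, while the group difference between miR-1 and empty vector cells had medians of 0.02 and -0.00 in these quintiles. Markers of other cells were at low levels. Of 31 markers of skeletal and cardiac muscle in the count table, MYF5, MYH1 and MYL1 had 0 reads in all 6 libraries of the batch, and the markers summed to 60 and 57.1 CPM (read counts per library size, scaled by TMM) in the empty vector libraries and 48.3 and 51.3 CPM in the miR-1 libraries. Markers of hepatocytes summed to between 1.45 and 2.18 CPM, of blood and endothelium to between 3.16 and 3.67 CPM, and of fibroblasts to 17.6 and 18.2 CPM in the empty vector and 21.3 and 20.7 CPM in the miR-1 libraries. Of 16 embryonic kidney and neuronal markers of 293 cells, 15 had a mean of at least 1 CPM.

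Upon miR-1 expression, a large share of the transcriptome changed, most of it by small amounts. By edgeR's quasi-likelihood test with Benjamini-Hochberg adjustment (threshold of 0.05), 13.7% of the genes tested were lower and 10.8% were higher than in empty vector cells, 24.5% in all. Large changes were mostly decreases: 131 genes fell and 16 rose by at least 1 on the log2 scale, and a further 424 fell and 72 rose by between 0.5 and 1. Of the 1550 genes that rose, 718 did so by less than 0.2, against 334 of the 1970 that fell. These calls rested on both miR-1 libraries. Without miR-1 replicate 1, 1067 genes were lower and 699 higher, and without miR-1 replicate 2, 1175 and 858, in fits that take the lone library to vary as the other groups do. The DESeq2 Wald test called 954 lower and 787 higher, and every one of those 1741 genes was also called by edgeR. As these are bulk samples, fewer cells expressing a gene and less RNA per cell cannot be told apart.

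Among protein-coding genes with a mean log2 CPM of 1 or more and no overlap between groups, the 12 that fell furthest included TWF1, OSMR and the genes that follow. Below TWF1, which encodes the actin-monomer binding protein twinfilin, and OSMR, the oncostatin M receptor, stood MTX1 (metaxin, a part of the import machinery of the mitochondrial outer membrane), at 15.1 and 13.7 CPM in the empty vector libraries and 3.97 and 4.73 CPM in the miR-1 libraries (log2 fold change -1.73, SE 0.121, adjusted p 3.1e-09). GJA1 (the gap junction protein connexin 43), with 2 8mers in its 3′UTR, was at 73.0 and 71.4 CPM against 21.7 and 22.8 CPM (-1.70, SE 0.0639, adjusted p 3.5e-13). E2F5 (a transcription factor of the E2F family that represses cell cycle genes) was at 24.0 and 24.9 CPM against 7.51 and 7.48 CPM (-1.70, SE 0.0903, adjusted p 4.8e-11). In none of these did a miR-1 library come near an empty vector library, and the miR-122 libraries (for GJA1 71.0 and 78.4 CPM) lay with the empty vector or above it. NOTCH3, a Notch receptor with 2 7mer-A1 matches, was at 37.5 and 33.0 CPM against 11.1 and 12.7 CPM (-1.57, SE 0.0861, adjusted p 8.1e-11). TAL1, a haematopoietic transcription factor, was at only 4.93 and 5.01 CPM against 1.63 and 1.83 CPM (-1.52, SE 0.184, adjusted p 6.9e-06). SFRP1, a secreted Wnt antagonist, was at 42.9 and 42.0 CPM against 14.8 and 15.4 CPM (-1.49, SE 0.0701, adjusted p 8.3e-12), and SLC44A1, a choline transporter with 3 8mers among its 4 matches, at 82.9 and 77.5 CPM against 29.9 and 31.6 CPM (-1.38, SE 0.0571, adjusted p 8.1e-13). Both also had lower values in the miR-122 libraries (SFRP1 36 and 33.6 CPM, SLC44A1 69.4 and 68.7 CPM) than in the empty vector libraries, though far above those with miR-1. E2F5, TAL1 and OSMR are genes that the study itself singled out from these cells, so their decrease is not independent evidence.

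**Figure D1:**
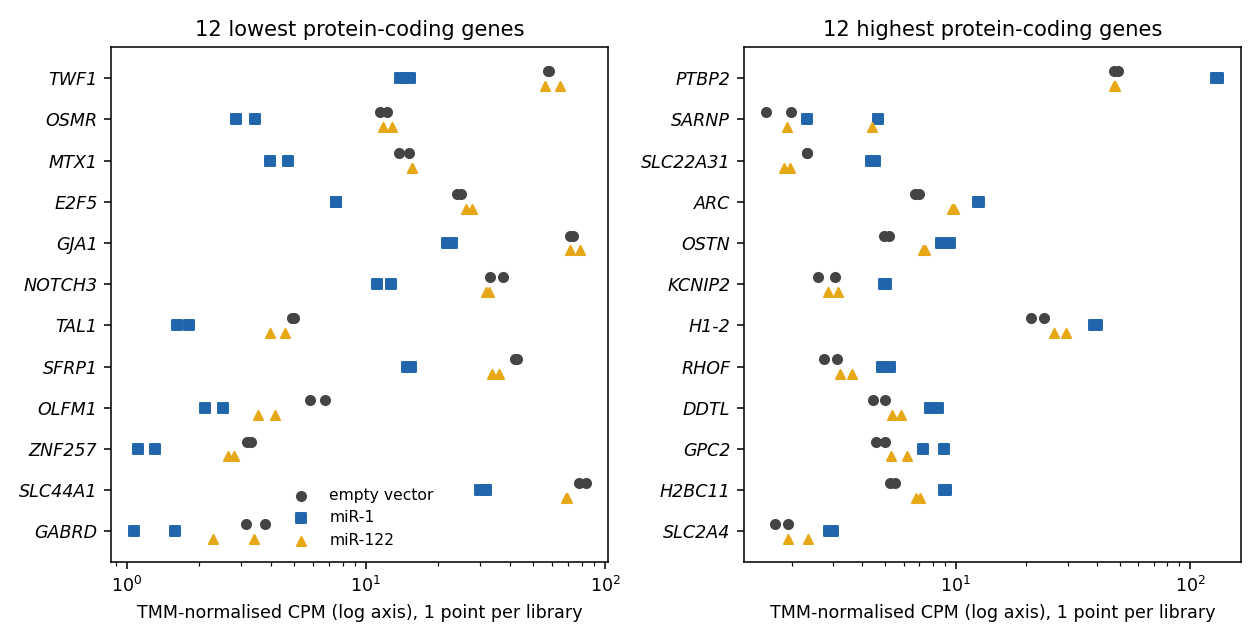
TMM-normalised CPM (log axis) in each library for the 12 protein-coding genes that fell furthest (left) and the 12 that rose furthest (right) with miR-1. Genes were eligible where the mean log2 CPM was 1 or more and the miR-1 and empty vector libraries did not overlap. Circles are empty vector libraries, squares miR-1 and triangles miR-122 (2 each); on the left both squares lie below all other points of their row, and on the right SARNP comes closest to overlap, with 2.32 CPM in miR-1 replicate 2 and 1.98 CPM in empty vector replicate 1; without miR-1 replicate 1 it was not called.

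The share of genes that fell followed the length and number of seed matches. Among the 13191 protein-coding genes tested with an annotated 3′UTR, 36.2% of the 773 genes with an 8mer were lower, 26.7% of the 1133 with a 7mer-m8, 20.3% of the 1278 with a 7mer-A1, 13.3% of the 1934 with a 6mer and 9.98% of the 8073 with no match, against 14.4% of all of them. The share that rose ran the other way, from 5.82% of genes with an 8mer to 12.6% of genes with no match. The median log2 fold change was -0.126 for 8mer genes, -0.065 for 7mer-m8 genes, -0.034 for 7mer-A1 genes, -0.005 for 6mer genes and 0.020 for genes with no match. These shares are a description, since the members of a class are not replicates of the condition. Matches added up: of the 46 genes with at least 2 8mers, 60.9% were lower and 2.17% higher, with a median of -0.274, and the share of lower genes was 23.7% with 1 match of 7 or 8 bases, 32.3% with 2 and 42.9% with 3 or more. The difference between the medians of genes with and without an 8mer or 7mer-m8 was -0.1018 for miR-1 replicate 1 and -0.0902 for replicate 2, each against the empty vector mean.

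**Figure D2:**
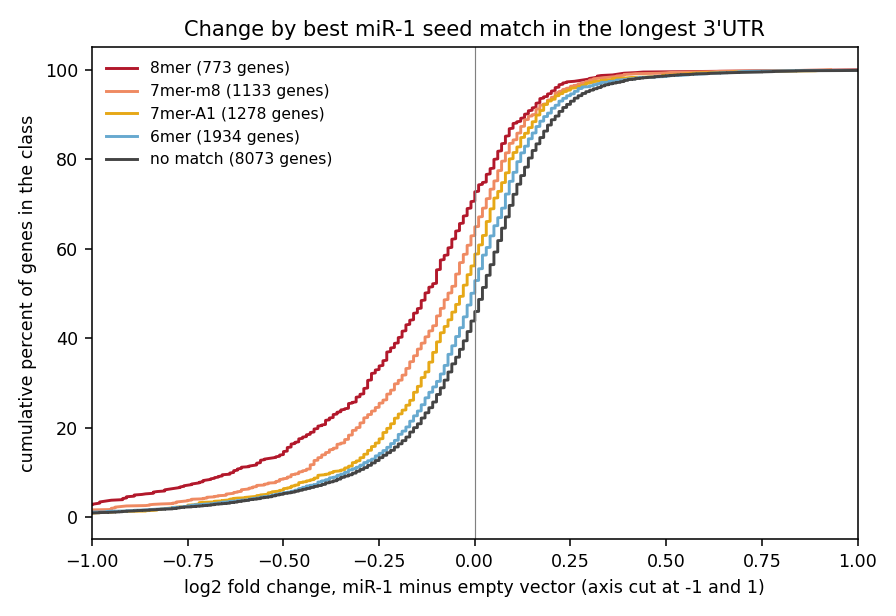
Cumulative percent of genes (vertical axis) against log2 fold change, miR-1 minus empty vector (horizontal axis, cut at -1 and 1), for genes grouped by the longest match to the miR-1 seed in their longest 3′UTR. The curves are ordered from 8mer (773 genes, median -0.126) on the left to no match (8073 genes, median 0.020) on the right over most of the range of decreases.

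The same class of match went with more decreases in short 3′UTRs. In the shortest tertile of 3′UTRs (up to 907 bases), 39.8% of the 176 genes with an 8mer or 7mer-m8 were lower, against 30.5% of 472 in the middle tertile and 29.3% of 1258 in the longest tertile (above 2401 bases), while genes without such a match differed less (10.5%, 12.5% and 12.4%). For genes with a single 8mer, the share that was lower rose with the A and U content of the 15 bases on each side, from 25.4% of 134 genes at 50% or less to 39.2% of 102 genes above 66.7%, but the median log2 fold change did not follow it (-0.117, -0.098, -0.085 and -0.137 from the lowest to the highest A and U content). It was 39% of 154 genes where the 8mer lay within 305 bases of the nearer end of the 3′UTR, and 26.8% and 29.2% in the next tertiles of distance. Matches outside the 3′UTR went with smaller shares. Of 258 genes with an 8mer in the ORF and no match in the 3′UTR, 18.2% were lower and 7.36% higher (median -0.014). The weaker ORF matches, again with none in the 3′UTR, had shares closer to each other. With a 7mer-m8 as the best ORF match (496 genes), 13.3% were lower and 10.9% higher (median 0.019). With a 7mer-A1 (596 genes), 14.4% were lower and 10.9% higher (median 0.003). Of 261 genes with a 7- or 8-base match in the 5′UTR and none in the 3′UTR, 18% were lower and 7.66% higher. Among 5310 genes with no match in 3′UTR, ORF or 5′UTR, 8.68% were lower and 12.8% higher. The miR-122 matches served as a neighbour with 1 changed letter: of 500 genes with an 8mer or 7mer-m8 for miR-122 and no miR-1 match, 11.6% were lower and 11.2% higher in miR-1 cells, with a median of 0.024. For the 189 of them with an 8mer for miR-122, 15.3% were lower and 8.99% higher, with a median of 0.008.

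**Figure D3:**
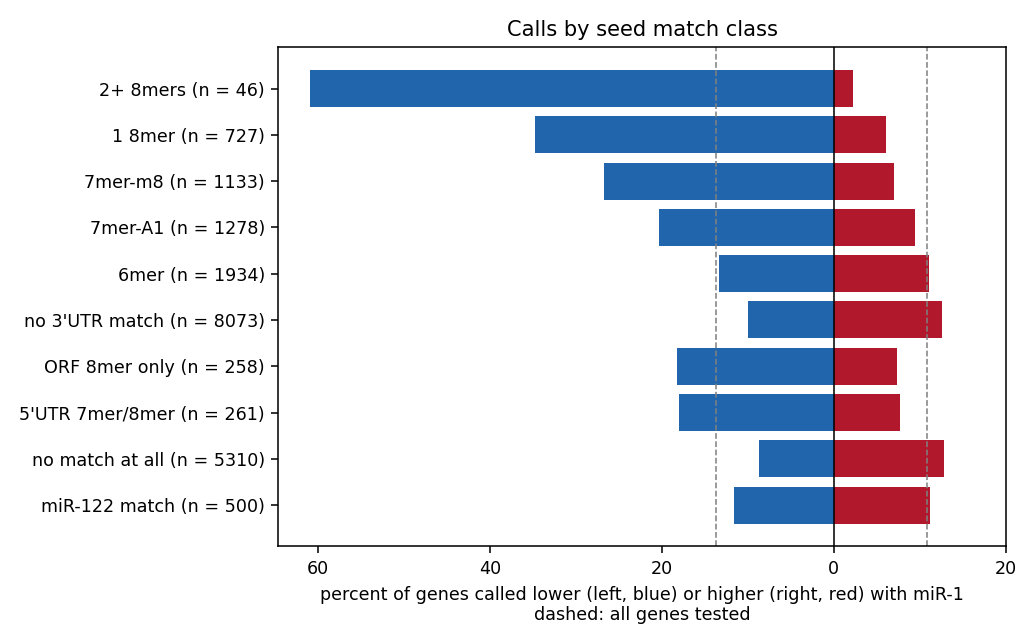
Percent of genes lower (left, blue) and higher (right, red) with miR-1 than with the empty vector, by seed match class, with the number of genes in each class; dashed lines mark the shares of all genes tested (13.7% and 10.8%). The bars to the left shrink from 60.9% for genes with at least 2 8mers to 9.98% for genes with no 3′UTR match, while those to the right grow from 2.17% to 12.6%.

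Seen from the side of the changed genes, matches were frequent among decreases of every size and rare among increases. Of the 1905 genes with a 3′UTR that fell, 44.1% held a 7- or 8-base match, 14.7% held an 8mer and 42.3% held none of the matches, 6mers included. Among all genes tested with a 3′UTR, 24.1% held a 7- or 8-base match, 5.86% an 8mer and 61.2% none. The largest decreases were not the richest in matches: among the 116 that fell by at least 1 on the log2 scale, 38.8% held a 7- or 8-base match and 44% none, against 45.8% and 42.2% of those that fell by 0.5 to 1. Of the 1474 genes with a 3′UTR that rose, 16.6% held a 7- or 8-base match and 68.9% none. Decreases were less frequent among long noncoding RNAs, of which 4.82% of 706 were lower and 6.09% higher, than among protein-coding genes, with 14.5% and 11.2% of 13218.

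A list of 59 genes known from textbooks and earlier work as miR-1 targets, of which 55 were tested, mostly fell. Of these, 37 were lower (67.3%, beside 13.7% of all genes), 1 was higher and the median log2 fold change was -0.40. A 7- or 8-base match was held by 48 of the 55 (87.3%), and the list was chosen with earlier results of these data known. Of the 37, 36 held a 7- or 8-base match, the exception being the pacemaker channel HCN4, and without miR-1 replicate 1 the number was 29 and without replicate 2 it was 32. SERP1, a protein that stabilises membrane proteins at the endoplasmic reticulum, was at 111 and 111 CPM in the empty vector libraries and 44.9 and 42.7 CPM with miR-1 (log2 fold change -1.34, SE 0.0495, adjusted p 3.2e-13). ANXA2, a membrane-binding annexin, went from 70.4 and 73.2 CPM to 33.5 and 34.5 CPM (-1.08, SE 0.0553, adjusted p 2.9e-11). The miR-1 libraries of both genes lay far below both controls. PNP, a purine salvage enzyme, went from 166 and 169 CPM to 90.5 and 87.8 CPM (-0.91, SE 0.0435, adjusted p 9.2e-12), and PAX3, a transcription factor of muscle precursors, from 15.4 and 14.7 CPM to 8.03 and 9.79 CPM (-0.76, SE 0.108, adjusted p 4.1e-05). PTMA (prothymosin, at 529 and 556 against 276 and 269 CPM) fell by 0.99 on the log2 scale, but it has many near-identical processed copies and its counts are uncertain. Other members were not called despite a match. The 14-3-3 protein YWHAZ, with an 8mer, was at 324 and 331 CPM against 309 and 303 CPM (adjusted p 0.069), the apoptosis inhibitor API5 at 165 and 167 against 159 and 166 CPM (adjusted p 0.65), and the RAS regulator RASA1 at 51.7 and 50.2 against 53.8 and 52.6 CPM (adjusted p 0.42). HSPA4, an HSP70-family chaperone with only a 6mer, rose from 421 and 415 CPM to 485 and 487 CPM (0.22, SE 0.0377, adjusted p 0.00033).

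Regulators of the actin cytoskeleton split by seed match. Of 71 tested, 20 were lower (28.2%, beside 13.7% of all genes) and 9 higher, and 17 of the 20 held a 7- or 8-base match, against 1 of the 9. LASP1, a LIM protein at focal adhesions and an actin binder, was at 107 and 109 CPM in the empty vector libraries and 48.1 and 45.1 CPM with miR-1 (log2 fold change -1.21, SE 0.0499, adjusted p 8.1e-13). TAGLN2, a transgelin that bundles actin filaments, was at 281 and 301 CPM against 139 and 132 CPM (-1.11, SE 0.0451, adjusted p 8.1e-13). TMSB4X, thymosin beta-4, which holds actin monomers, was at 7.83 and 9.73 CPM against 3.92 and 4.29 CPM (-1.10, SE 0.156, adjusted p 4.1e-05), and its counts are uncertain because of near-identical copies. The list's median was 0.04 and its summed level was close in both groups (15744 and 15889 CPM against 15797 and 15666 CPM). Without miR-1 replicate 2, 13 members were lower, and the number of higher members was 4 and 6 without miR-1 replicates 1 and 2 and 14 without empty vector replicate 2. Genes activated by SRF and its actin-sensing cofactors leaned upward, with 9 of 33 higher and 3 lower and a median of 0.11, but without miR-1 replicate 1 only 4 were higher. This SRF list also held the factors themselves, and its 9 higher genes were 27.3% of it, beside 10.8% of all genes. With miR-122 against the empty vector, 4 of the 33 were higher and 1 lower, with a median of 0.07. With miR-1 against miR-122, 11 were higher and 4 lower, with a median of 0.02. IER5, an immediate early gene, rose with miR-1 from 92.6 and 96.1 CPM to 124 and 124 CPM (0.39, SE 0.0488, adjusted p 8.4e-06), while smooth muscle actin ACTA2 fell from 19.1 and 20.1 CPM to 14 and 14.8 CPM (-0.45, SE 0.0835, adjusted p 0.00068).

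Among metabolic pathways, the pentose phosphate pathway had more decreases and glycolysis more increases. In the pentose phosphate pathway, which makes NADPH and ribose, 6 of 11 genes were lower (54.5%, beside 13.7% of all genes) and 2 higher (median -0.20). Of the 6, 4 held a 7- or 8-base match. Without either of the miR-1 libraries 1 was higher. PGLS, 6-phosphogluconolactonase, was at 49.8 and 54.0 CPM in the empty vector libraries and 38 and 39.1 CPM with miR-1 (log2 fold change -0.43, SE 0.0585, adjusted p 2.5e-05), without any 3′UTR match. PGD, phosphogluconate dehydrogenase, with an 8mer, was at 310 and 322 CPM against 260 and 261 CPM (-0.28, SE 0.0400, adjusted p 5e-05). Both enzymes were lower in each miR-1 library than in each control, which was required of the members named from this list.

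In glycolysis, 11 of 23 genes were higher (47.8%, beside 10.8% of all genes) and 0 lower, with a median of 0.11, and 2 of the 11 held a 7- or 8-base match. The median of the members' mean log2 CPM was 8.33, and of all genes above 7, 24.9% were higher. The list summed to 14011 and 14378 CPM in the empty vector libraries and 15368 and 15106 CPM with miR-1. PFKFB3, which makes the activator of phosphofructokinase, was at 73.6 and 69.9 CPM against 87.8 and 85.8 CPM (log2 fold change 0.27, SE 0.0519, adjusted p 0.00072). HK2, a hexokinase, was at 93.6 and 89.2 CPM against 107 and 107 CPM (0.23, SE 0.0486, adjusted p 0.002). In both genes the miR-1 libraries lay above the controls by more than the replicates differed. A lack of overlap between the groups was required of the members named from this list. Some of this was not particular to miR-1: HK2 was at 109 and 101 CPM in the miR-122 libraries, and against those libraries 5 members of the list were higher and 4 lower. Without miR-1 replicate 1 the number of higher members was 5 and without replicate 2 it was 6. In the TCA cycle 7 of 25 genes were higher and 1 lower, with a median of 0.07. CS, citrate synthase, was at 262 and 265 CPM against 324 and 315 CPM (0.28, SE 0.0390, adjusted p 3.9e-05), and OGDH, a subunit of the oxoglutarate dehydrogenase complex, at 107 and 116 CPM against 131 and 130 CPM (0.23, SE 0.0458, adjusted p 0.0012). Without miR-1 replicate 1 the TCA count was 2. Cholesterol synthesis leaned the same way (7 of 26 higher, 1 lower, median 0.05), with INSIG1, a sterol-regulated brake on the pathway, at 211 and 212 CPM against 255 and 245 CPM (0.24, SE 0.0414, adjusted p 0.00029), and the count was 4 without miR-1 replicate 1.

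Splicing regulators included PTBP2, which rose furthest among the protein-coding genes with a mean log2 CPM of 1 or more and no overlap between groups, and several that fell. PTBP1, which represses exons in most non-neuronal cells, was at 568 and 577 CPM in the empty vector libraries and 334 and 327 CPM with miR-1 (log2 fold change -0.79, SE 0.0376, adjusted p 9.2e-12), and its 3′UTR held a 7mer-A1 and the 7mer-m8 shown above. Its neuronal paralog PTBP2, whose message is destroyed in cells with PTBP1 after exon skipping, rose with a log2 fold change of 1.44. SRSF9, an SR protein, was at 283 ± 10.3 CPM against 126 ± 6.16 CPM (SD, n = 2 each; log2 fold change by edgeR -1.16, SE 0.0478, adjusted p 8.1e-13). RBM24, a splicing factor of muscle, was at 5.51 and 5.29 CPM against 3.36 and 3.33 CPM (-0.69, SE 0.154, adjusted p 0.0028), a call that the DESeq2 Wald test did not make. In all, 12 of 55 splicing regulators were lower (21.8%, beside 13.7% of all genes) and 4 higher (7.27%, beside 10.8%), with a median of -0.04, and 5 of the 12 held a 7- or 8-base match. Without either of the miR-1 libraries, 7 were lower and 2 higher. Neuronal genes with exons that PTBP proteins are known to repress did not move together in their gene totals: 4 of 17 were higher, 3 lower, and the median was 0.01. Counts were summed over the exons of each gene, so inclusion of the repressed exons was not measured. STMN3, a neuronal stathmin of that list with no 3′UTR match, fell from 80.6 and 80.3 CPM to 41.5 and 41.8 CPM (-0.95, SE 0.0521, adjusted p 8.1e-11), with 63.6 and 66.8 CPM in the miR-122 libraries.

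Besides OSMR, several genes at low levels fell without any 3′UTR match. OLFM1, a secreted neuronal glycoprotein, was at 5.85 and 6.76 CPM in the empty vector libraries and 2.52 and 2.12 CPM with miR-1 (log2 fold change -1.44, SE 0.171, adjusted p 5.4e-06). CHGB, a protein of secretory granules, was at 4.50 and 4.63 CPM against 2.15 and 1.5 CPM (-1.32, SE 0.199, adjusted p 7.8e-05), and SYP, the synaptic vesicle protein synaptophysin, at 22.9 and 24.7 CPM against 10.6 and 10.0 CPM (-1.20, SE 0.0877, adjusted p 6.2e-09). The miR-122 libraries lay between the groups for these genes (OLFM1 3.55 and 4.15, CHGB 3.45 and 2.86, SYP 16.6 and 17.3 CPM), and OLFM1 and SYP were also lower with miR-122 than with the empty vector (adjusted p 0.0069 and 0.00048). GABRD, a subunit of the GABA-A receptor, was at 3.14 and 3.78 CPM against 1.07 and 1.59 CPM (-1.38, SE 0.249, adjusted p 0.00049), and TAC1, the substance P precursor, at 3.19 and 2.74 CPM against 1.03 and 1.30 CPM (-1.35, SE 0.237, adjusted p 0.00038). RAB32, a GTPase of lysosome-related organelles, was at 6.43 and 6.90 CPM against 2.57 and 2.85 CPM (-1.30, SE 0.152, adjusted p 4.4e-06), with 8.08 and 8.15 CPM in the miR-122 libraries. Most of these genes were at a few CPM, where the SE is large.

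Extracellular matrix proteins and integrins were lower in many members, most of which lacked a 7- or 8-base match. Of 47 tested, 23 were lower (48.9%, beside 13.7% of all genes) and 2 higher, with a median of -0.14, while only 7 of the 47 held a 7- or 8-base match and 11 of the 23 held no match of any kind. The list summed to 4410 and 4086 CPM in the empty vector libraries and 3732 and 3932 CPM with miR-1. SPARC, a matricellular protein without a match, was at 15.6 and 15 CPM against 8.77 and 9.36 CPM (log2 fold change -0.76, SE 0.0976, adjusted p 1.3e-05). TIMP3, an inhibitor of matrix proteases with an 8mer, was at 83.8 and 89.8 CPM against 54.1 and 52.2 CPM (-0.71, SE 0.0550, adjusted p 1.5e-08). COL6A2, a chain of collagen VI with a 6mer, was at 42.8 and 43.4 CPM against 26.3 and 27.5 CPM (-0.68, SE 0.0639, adjusted p 2.2e-07). FN1, fibronectin, with an 8mer, was at 139 and 121 CPM against 84.7 and 100 CPM (-0.49, SE 0.0668, adjusted p 2.4e-05), but at 99.2 ± 2.63 CPM (SD, n = 2) in the miR-122 libraries, so for this gene miR-1 and miR-122 cells did not differ by the test (adjusted p 0.27). TNC, tenascin C, rose from 23.8 and 21.6 CPM to 31.8 and 36.2 CPM (0.58, SE 0.0807, adjusted p 3.1e-05) and was at 34.6 and 30.7 CPM with miR-122. Without miR-1 replicate 1, 15 members were lower, and by the DESeq2 Wald test 14. Without empty vector replicate 1, 4 were higher. The summed level of the fibroblast markers, given above, was higher in the miR-1 libraries, and its part in the result was not tested.

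Cadherins and interferon response genes were also more often lower than higher. Of 36 cadherins and protocadherins tested, 9 were lower (25%, beside 13.7% of all genes) and 0 higher, with a median of -0.34, but 32 of the 36 had a mean log2 CPM of at most 5. The DESeq2 Wald test called 4 lower, and without miR-1 replicate 1 there were 5. CDH3, P-cadherin, with a 7mer-m8, was at 25.5 and 25.6 CPM against 12.3 and 12.9 CPM (log2 fold change -1.02, SE 0.0831, adjusted p 2.8e-08), and CDH1, E-cadherin, without a match, at 15.4 and 13.1 CPM against 8.68 and 10.4 CPM (-0.58, SE 0.119, adjusted p 0.0014). Of 41 interferon response genes tested, 12 were lower (29.3%) and 1 higher, and 6 of the 12 held no match. OAS3, an enzyme of the antiviral oligoadenylate system, with a 7mer-A1, was at 15.1 and 16.1 CPM against 6.16 and 6.32 CPM (-1.32, SE 0.107, adjusted p 2.7e-08). MX1, an antiviral GTPase, was at 2.47 and 2.08 CPM against 1.21 and 0.820 CPM (-1.15, SE 0.26, adjusted p 0.0031), and its call was lost without miR-1 replicate 2. IFITM3, a membrane protein that blocks viral entry, was at 4.35 and 4.63 CPM against 2.85 and 2.32 CPM (-0.80, SE 0.173, adjusted p 0.0023). The interferon count was the least steady of these: without either of the miR-1 libraries it was 5, and by the DESeq2 Wald test 4. Against the miR-122 libraries 17 of the 41 were lower and 1 higher. With miR-122 against the empty vector, however, 2 were higher and 0 lower, with a median of 0.11. Of the 41, 31 had a mean log2 CPM of at most 5. Of 25 genes of gp130 cytokine receptors and JAK-STAT signalling, 4 were lower (16%, close to the 13.7% of all genes) and 1 higher (3 higher without either of the empty vector libraries), with a median of 0.04. Besides OSMR these included LIFR, the receptor of LIF, with an 8mer, at 117 ± 6.94 CPM against 91.3 ± 1.38 CPM (SD, n = 2 each; log2 fold change by edgeR -0.36, SE 0.0493, adjusted p 2.9e-05), and its ligand LIF, at 7.44 and 6.76 CPM against 4.57 and 4.54 CPM (-0.64, SE 0.138, adjusted p 0.0021).

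The amino acid response controlled by the transcription factor ATF4 fell in part. Of 38 genes tested, 15 were lower (39.5%) and 3 higher, with a median of -0.10, and 8 of the 15 held a 7- or 8-base match. PSAT1, an enzyme of serine synthesis, was at 240 and 248 CPM in the empty vector libraries and 169 and 171 CPM with miR-1 (log2 fold change -0.52, SE 0.0436, adjusted p 3.6e-08). PCK2, mitochondrial phosphoenolpyruvate carboxykinase, without a match, was at 49.4 and 54.1 CPM against 35.6 and 34.6 CPM (-0.56, SE 0.0675, adjusted p 6.3e-06). ALDH1L2, an enzyme of mitochondrial folate metabolism, was at 17.0 and 14.3 CPM against 8.03 and 10.2 CPM (-0.78, SE 0.119, adjusted p 9.2e-05). Both PSAT1 and PCK2 were at or above the empty vector in the miR-122 libraries (268 and 249 CPM, and 61.3 and 54.2 CPM). This did not hold for the list's summed level. It was 8428 and 8484 CPM in the empty vector, 8093 and 7995 CPM in the miR-1 and 8076 and 7748 CPM in the miR-122 libraries. With miR-122 against the empty vector, 5 of the 38 were lower and 3 higher, with a median of 0.02. Without miR-1 replicate 1 the count of lower members was 9, as it was by the DESeq2 Wald test, and the count of higher members was 0 without miR-1 replicate 1 and 1 without replicate 2. Of 43 receptor tyrosine kinases and regulators of RAS-MAPK signalling, 12 were lower (27.9%, beside 13.7% of all genes) and 5 higher (11.6%, beside 10.8%), with a median of -0.04. EGFR, with 3 7-base matches, was at 34.7 and 30.7 CPM against 19.8 and 23.1 CPM (-0.61, SE 0.0800, adjusted p 1.6e-05), ROR1, an orphan receptor, at 32.2 and 31.2 CPM against 21.9 and 23.6 CPM (-0.48, SE 0.0697, adjusted p 5.2e-05), and MET, the receptor of hepatocyte growth factor, at 161 and 149 CPM against 115 and 115 CPM (-0.43, SE 0.0484, adjusted p 2.7e-06). Without miR-1 replicate 1 the lower count was 6, as it was by the DESeq2 Wald test, and the higher count was 0. The higher count was 2 without miR-1 replicate 2 or empty vector replicate 2.

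Increases were frequent among genes of nuclear transport, protein folding, RNA helicases and mitosis, and were small. Of 38 nuclear pore and transport genes, 18 were higher (47.4%, beside 10.8% of all genes) and 6 lower (15.8%, beside 13.7%), with a median of 0.12. The median of the members' mean log2 CPM was 8.04, and it was 8.12 for the chaperones below. Of all genes above 7, 24.9% were higher. IPO4, an importin, was at 167 and 174 CPM in the empty vector libraries and 211 and 198 CPM with miR-1 (log2 fold change 0.27, SE 0.0452, adjusted p 0.00027). The 6 that fell included NUP50, a nucleoporin with a 7mer-m8, at 114 and 115 CPM against 75.6 and 71.4 CPM (-0.64, SE 0.0481, adjusted p 9e-09), and XPO6, the exportin of actin, with 2 7mer-A1 matches, at 248 and 238 CPM against 167 and 166 CPM (-0.54, SE 0.0408, adjusted p 1e-08). Of the 18 higher genes 2 held a 7- or 8-base match, and of the 6 lower genes 4 did. Of 25 cytosolic chaperones 11 were higher (44%) and 3 lower (12%). The higher ones included BAG3, a cochaperone of HSP70, at 49.6 and 48.3 CPM against 57.9 and 62.0 CPM (0.29, SE 0.0551, adjusted p 0.00071). Of 48 DEAD and DEAH box helicases 17 were higher (35.4%) and 7 lower (14.6%). DHX37, a helicase of ribosome assembly, was at 101 and 93.5 CPM against 121 and 121 CPM (0.32, SE 0.0489, adjusted p 9.3e-05), and DDX5, a helicase in transcription and splicing with a 7mer-m8, at 569 and 575 CPM against 355 and 366 CPM (-0.67, SE 0.0383, adjusted p 1.6e-10). Without miR-1 replicates 1 and 2 in turn, the number of higher members was 9 and 8 for nuclear transport and 7 and 7 for the helicases, of which 4 were then lower, and for the chaperones it was 7 without replicate 1. The DESeq2 Wald test called 9 helicases higher.

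Of 44 mitotic genes, 16 were higher (36.4%, beside 10.8% of all genes) and 0 lower, with a median of 0.09. The median of the members' mean log2 CPM was 7.19, and of all genes above 7, 24.9% were higher. The list summed to 7636 and 7327 CPM in the empty vector libraries and 7884 and 8055 CPM with miR-1. PTTG1, securin, an inhibitor of the separation of sister chromatids, was at 78.7 and 85.6 CPM against 103 and 98.5 CPM (log2 fold change 0.30, SE 0.0510, adjusted p 0.00031). BIRC5, survivin, a subunit of the chromosomal passenger complex, was at 225 and 235 CPM against 269 and 264 CPM (0.22, SE 0.0404, adjusted p 0.00069). No overlap between groups was required of the members named from this list, and the changes were a small part of their level. The number of mitotic genes that were higher was 8 without either of the miR-1 libraries. Regulators of the G1 phase moved both ways, with 10 of 30 higher (33.3%) and 5 lower (16.7%). CDK4, the G1 kinase, with a 7mer-m8, fell from 229 and 247 CPM to 183 and 176 CPM (-0.41, SE 0.0443, adjusted p 1.7e-06), and its partner CCND2, cyclin D2, from 148 and 150 CPM to 117 and 118 CPM (-0.34, SE 0.0423, adjusted p 9.7e-06). CDKN1A, the p53-induced CDK inhibitor p21, rose from 82.2 and 84.3 CPM to 98.2 and 105 CPM (0.29, SE 0.0488, adjusted p 0.00028). Of 26 genes of the p53 response 4 were lower (15.4%) and 2 higher (7.69%), close to the 13.7% and 10.8% of all genes. The count of higher G1 genes was 6 without empty vector replicate 1, 3 without miR-1 replicate 1 and 5 without miR-1 replicate 2, and of lower p53 genes 1 without empty vector replicate 2, 1 without miR-1 replicate 1 and 2 without miR-1 replicate 2.

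Components of the miRNA pathway and of messenger RNA decay were more often higher than lower. Higher genes made up 29.4% of the miRNA machinery and 22.4% of the decay factors, beside 10.8% of all genes. Of 17 genes of the miRNA machinery 5 were higher and 0 lower. TNRC6B, a GW182 protein that recruits deadenylases to Argonaute, was at 85.6 and 68.6 CPM in the empty vector libraries and 95.9 and 98.7 CPM with miR-1 (log2 fold change 0.34, SE 0.0695, adjusted p 0.0016), and XPO5, which exports precursor miRNAs from the nucleus, at 267 and 254 CPM against 298 CPM or more in both miR-1 libraries (0.20, SE 0.0403, adjusted p 0.0011). Both miR-1 libraries were above both controls in these genes, as was required of the members named from this list. The empty vector libraries differed by more for TNRC6B than the miR-1 libraries did. The median log2 fold change of the machinery was 0.13, and it moved with the control kept. It was 0.19 without empty vector replicate 1 and 0.08 without empty vector replicate 2. Of 49 messenger RNA decay factors 11 were higher and 1 lower (3 lower without empty vector replicate 2), the higher ones including the deadenylase-binding proteins BTG2 (82.7 and 88.0 against 97.2 and 103 CPM, log2 fold change 0.23, SE 0.0497, adjusted p 0.0021) and TOB2 (67.8 and 67.8 against 79.8 and 79.7 CPM, 0.23, SE 0.0475, adjusted p 0.0013). This count was 6 without miR-1 replicate 1, 5 without replicate 2, 6 by the DESeq2 Wald test and 7 with a replicate block.

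Some histone and HOX genes and a nuclear noncoding RNA rose. Higher genes made up 29.6% of the histone genes and 20% of the HOX genes, beside 10.8% of all genes. Lower genes made up 7.41% of the histone genes, beside 13.7% of all genes. H1-2, a linker histone, was at 21.0 and 23.7 CPM in the empty vector libraries and 39.9 and 38.8 CPM with miR-1 (log2 fold change 0.82, SE 0.0738, adjusted p 1.3e-07), and H2BC11, a core histone, at 5.51 and 5.25 CPM against 8.96 and 9.12 CPM (0.75, SE 0.122, adjusted p 0.00017). The miR-122 libraries lay between for both (H1-2 29.6 and 26.3 CPM, H2BC11 6.75 and 7.05 CPM). Of 27 histone genes 8 were higher and 2 lower, with a median of 0.22. The 2 that fell were H3-3B, which encodes histone H3.3, at 480 and 508 CPM against 223 and 230 CPM (-1.12, SE 0.0412, adjusted p 3.2e-13), and the near-identical H3-5, at 36.8 and 38.7 CPM against 20.5 and 18.5 CPM (-0.95, SE 0.0726, adjusted p 1.2e-08). Both carry a 7mer-A1 and their reads may be shared, so they are uncertain as separate genes. As most histone messages lack a poly(A) tail, these poly(A)-selected libraries see only part of them. Of 35 HOX genes 7 were higher and 0 lower, among them HOXA4, at 9.96 and 10.4 CPM against 14.5 and 14 CPM (0.48, SE 0.101, adjusted p 0.0018), and the count was 4 without miR-1 replicate 2. NEAT1, the RNA scaffold of paraspeckles, was at 244 and 214 CPM against 408 and 421 CPM (0.86, SE 0.0492, adjusted p 1.6e-10), with 241 and 248 CPM in the miR-122 libraries.

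**Figure D4:**
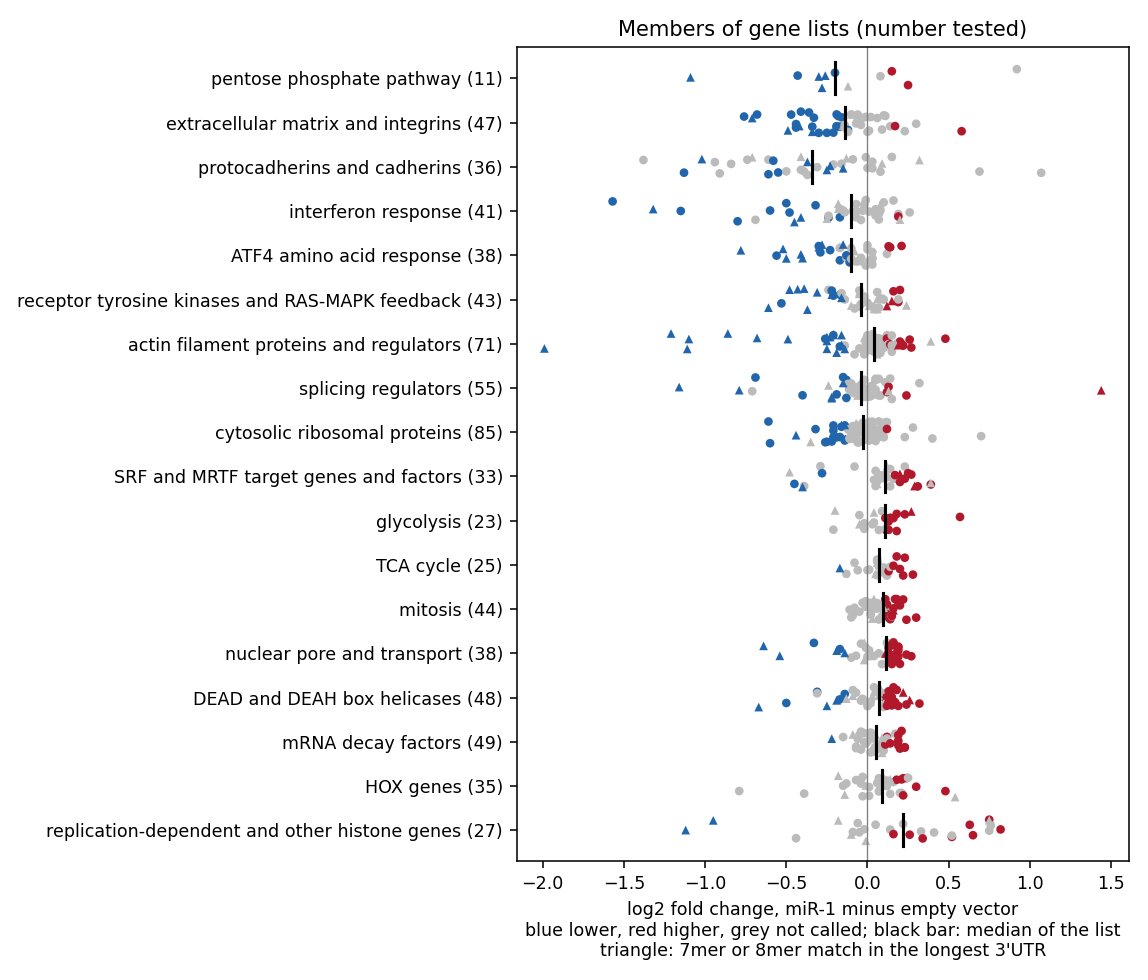
Log2 fold change, miR-1 minus empty vector (horizontal axis), of each tested member of 18 gene lists (number tested in parentheses). Blue points were lower, red higher and grey not called; triangles hold a 7- or 8-base match in the longest 3′UTR and black bars are list medians, from -0.34 for cadherins to 0.22 for histone genes. In the actin list the lowest points are triangles, and in the extracellular matrix list most blue points are circles.

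Large gene families and complexes differed in the balance of decreases and increases. Beside 13.7% lower and 10.8% higher among all genes, of 436 zinc finger ZNF genes 65 were lower (14.9%) and 16 higher (3.67%), and of 242 solute carriers 43 were lower (17.8%) and 28 higher (11.6%). The median of the ZNF genes' mean log2 CPM was 4.23, and 304 of the 436 were at or under 5. Of all genes up to 3, 2.45% were higher, and of all genes from 3 to 5, 6.18%. Among the zinc fingers, ZNF354C, with 2 8mers, fell from 14.5 and 12.3 CPM to 6.07 and 7.24 CPM (log2 fold change -1.01, SE 0.120, adjusted p 5e-06). SLC16A9, a monocarboxylate transporter with a 6mer, fell from 30.6 and 28.2 CPM to 11.5 and 12.5 CPM (-1.29, SE 0.0878, adjusted p 2e-09). Without miR-1 replicates 1 and 2 in turn the number of lower ZNF genes was 35 and 37, that of higher ZNF genes 4 and 8 and that of higher solute carriers 7 and 14. Without miR-1 replicate 2 the number of lower solute carriers was 27, and without empty vector replicate 1 that of higher ZNF genes was 26. Of 85 cytosolic ribosomal proteins 18 were lower and 1 higher, with a median of -0.03, but this count moved with a control library: it was 32 without empty vector replicate 1, 12 (with 9 higher) without empty vector replicate 2 and 9 without either of the miR-1 libraries. Ribosomal protein messages are short and have many near-identical copies, so this list is uncertain, and the length difference between the empty vector libraries given above moves with it; its part in the result was not tested. Of 73 mitochondrial ribosomal proteins 10 were higher and 1 lower (6 higher and 5 lower without empty vector replicate 1 and 5 without miR-1 replicate 1), and of 37 subunits of complex I 5 were higher and 1 lower (2 higher without empty vector replicate 1, 10 without empty vector replicate 2, 0 without miR-1 replicate 1 and 3 without miR-122 replicate 2).

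The direction of change also went with the number of reads of a gene. CPM is not divided by gene length, so these classes order genes by their reads and not by their transcripts. Among the 3599 genes with a mean log2 CPM of up to 3, 10.2% were lower and 2.45% higher, with a median log2 fold change of -0.10. Among the 1851 genes above 7, 11.9% were lower and 24.9% higher, with a median of 0.04. The classes between had medians of -0.04 and 0.02. The same held for genes with no 3′UTR match, with a median of -0.10 in the lowest class and 0.06 in the highest, and for 8mer genes, with -0.31 and -0.06. Over all genes, the medians of miR-122 minus empty vector were within 0.01 of 0 in every class, while those of miR-1 minus miR-122 were -0.10 in the lowest class and 0.05 in the highest. For genes with an 8mer for miR-1, the medians of miR-122 minus empty vector were -0.09 in the lowest class and -0.01 in the highest. Median SE fell from 0.248 in the lowest class to 0.0422 in the highest, so smaller changes could be called among genes with more reads.

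**Figure D5:**
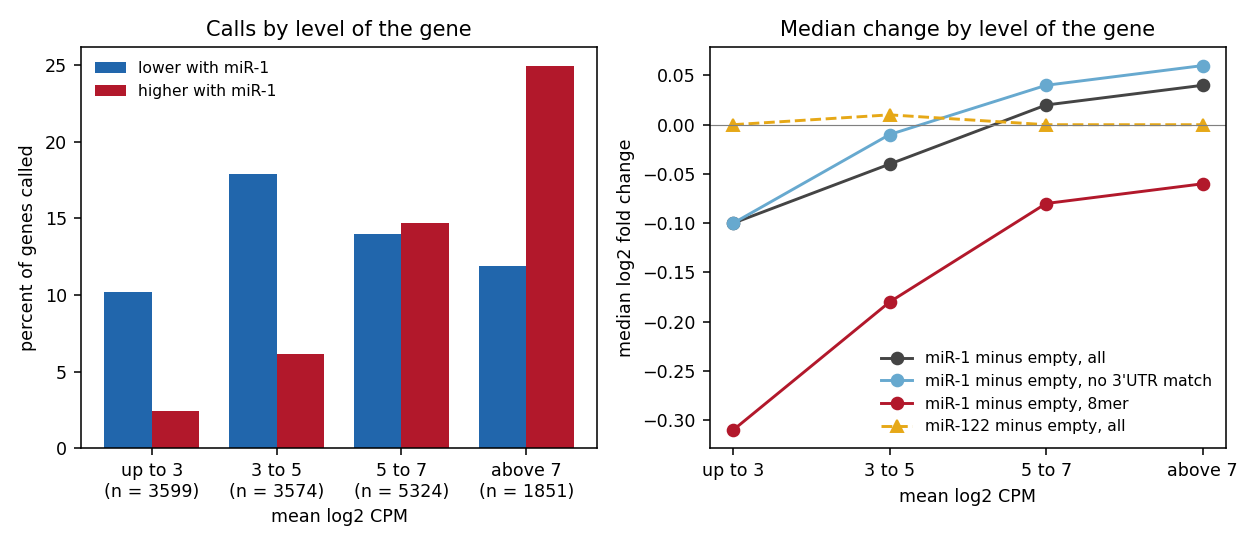
Genes grouped by mean log2 CPM (horizontal axes, with the number of genes). Left, percent of genes lower (blue) and higher (red) with miR-1 than with the empty vector; right, median log2 fold change of all genes, of genes with no 3′UTR match and of genes with an 8mer for miR-1 minus empty vector, and of all genes for miR-122 minus empty vector (dashed). The share of higher genes grows from 2.45% to 24.9%, and the 8mer line runs from -0.31 to -0.06 below the others.

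SRSF9, PTBP1, H3-3B, DDX5, NUP50, XPO6, CDH3, CDH1, SFRP1, SLC44A1, LIFR, ACTA2, CCND2, IPO4, XPO5, CS, HOXA4, HSPA4, API5, PFKFB3 and SARNP each overlap another annotated gene on the same strand, and reads in a shared exon may have been left out or given to the other gene.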

How the data were processed

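The authors sequenced poly(A)-selected, strand-specific libraries, aligned reads to hg19 with TopHat2 2.1.1 and deposited raw counts of reads in exons per gene made with featureCounts (reverse strand, mapping quality of at least 50). Deposited tables of the authors' own comparisons (fold changes, mean levels, p- and q-values of edgeR 3.24.3 and of a joint RNA-seq and PRO-seq test) were not used. Here the 6 libraries of batch 1 were fitted with edgeR 4.0.16 (R 4.3.3): genes kept by filterByExpr (minimum count of 10), TMM scaling, quasi-likelihood test, Benjamini-Hochberg threshold of 0.05. Libraries held between 20153452 and 21595191 counts, which limits precision most for genes with few reads. Seed matches were read from the longest 3′UTR of protein-coding genes in GENCODE 44 on GRCh37, and 28543 of 29794 genes matched this annotation. Named genes were, among called genes whose groups did not overlap and whose mean log2 CPM was 1 or more, the 12 lowest and 12 highest protein-coding genes, the 8 lowest without a match, the 8 lowest with an 8mer, up to 4 members of each list by size of change and the 2 lowest and 2 highest noncoding genes, plus all members of the textbook target list and the study's own list. The members and gene lists were chosen with earlier results of these data known, and leaving out libraries for the lists was added after seeing the data. The fit was tested on simulated counts. Replicate numbers did not pair the libraries (correlations of deviations -0.0391, -0.0315 and -0.0112). Some named genes are not reported here.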

Additional observations from a re-analysis of the deposited data

How the results depend on the processing

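The DESeq2 Wald test called 1741 genes (954 lower, 787 higher), and asking for a log2 fold change of at least 0.2 left 832 higher genes. With a library left out, called genes ranged from 1766 to 3465, lower from 1067 to 1837 and higher from 699 to 1628, the lowest without miR-1 replicate 1. With a replicate block, 2939 genes were called, 2932 of them shared, although the numbers did not pair the libraries. The difference of medians between genes with and without a 3′UTR site was -0.131 for 8mers alone, -0.204 in the shortest 3′UTRs and 0.004 for miR-122 matches. By the Wald test, lower members numbered 14 for extracellular matrix, 4 for interferon, 9 for ATF4, 6 for receptor tyrosine kinases, 4 for cadherins and 28 for ZNF genes, and higher members 9 for helicases and 6 for mRNA decay; with the replicate block these last were 10 and 7. With a library left out, lower members ranged from 13 to 19 (actin), 15 to 25 (extracellular matrix), 5 to 13 (interferon), 9 to 15 (ATF4), 6 to 10 (receptor tyrosine kinases), 5 to 9 (cadherins), 9 to 32 (ribosomal proteins) and 35 to 64 (ZNF), and higher members from 5 to 11 (glycolysis), 8 to 17 (mitosis), 8 to 19 (nuclear transport), 7 to 16 (helicases), 7 to 13 (chaperones) and 5 to 11 (mRNA decay). The ribosomal protein median ranged from -0.08 to 0.01, the latter without empty vector replicate 2. The causes were not tested. Of 276 named genes 258 were called, 175 of these under every alternative with a value, and 0 reversed.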
